A study of Mus musculus with 20 samples.

Results

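Transcripts of 42 genes of DNA replication and nucleotide synthesis were followed through 6 groups of libraries from the MMTV-PyMT mouse model of breast cancer. The genes were taken from a fixed list of names, chosen with earlier results of these data known, and all 42 were found among the 45706 genes counted. They fall into 7 groups by role. Origin licensing and the MCM helicase hold 10 genes, helicase activation 6, polymerases and primase 6, the clamp, clamp loader and lagging strand 8, nucleotide supply 5, S phase entry 3, and fork protection and chromatin 4.

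Every mouse carried the PyMT oncogene under the MMTV promoter, on a C57BL/6N background. Tumors were taken at 18 weeks of age from 4 control mice, labelled WT, which kept cathepsin D (CTSD), and from 4 MMTV-cre;Ctsd-/- mice, labelled Ctsd-KO, in which MMTV-driven Cre deletes a floxed Ctsd in mammary epithelium while stromal cells keep the gene. Tumor cell lines were spontaneously immortalized from 1 Ctsd+/+ and 1 MMTV-cre;Ctsd-/- PyMT mouse, so that the line and the genotype cannot be told apart. Both lines were kept in DMEM/F12 with glutamine, antibiotics and 1% fetal calf serum (FCS), either for 10 days (1% FCS) or for 12 weeks (1% FCS LT, for long-term), with 3 replicates in each of the 4 groups. Replicates of a cell group are separate cultures of the same line, and p-values between cell groups measure only the spread between those cultures.

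Before a cell divides, the origin recognition complex (ORC), CDC6 and CDT1 load a ring of MCM2 to MCM7 onto replication origins. In S phase, CDC45 and the GINS complex turn this ring into an active helicase, primase and the DNA polymerases copy the strands, and the sliding clamp PCNA, set in place by replication factor C (RFC), holds the polymerases to the template. Ribonucleotide reductase, thymidylate synthase and thymidine kinase supply the deoxynucleotides. E2F transcription factors, released from the retinoblastoma protein by cyclin-dependent kinases, drive transcription of many of these genes, which is why their mRNAs are commonly read as a sign of cell proliferation.

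The promoters of 32 of the 42 genes were in the RefSeq promoter set used here (mouse build GRCm38.p6). Windows of 280 bases, from 250 before to 30 after the transcription start, were searched on both strands for the E2F-type letters TTTGGCGC, TTTCCCGC, TTTGCCGC, TTTCGCGC and TTTGGCGG and for the letters CCAAT, the box bound by NF-Y. Overlapping matches were counted. An E2F-type match was present in 12 of the 32 genes (37.5%), against 2.98% of 27025 genes with a promoter window. A CCAAT match was present in 19 of the 32 (59.4%), against 39.7% of all. The windows of 6 genes are shown, genes on which the comparisons below turn, 5′ to 3′ on the strand of the gene, with E2F-type and CCAAT matches (or their reverse complements) in capitals. Cdc6, Orc1 and Clspn carry E2F-type matches and were lower in 1% FCS Ctsd-/- cells. Mcm6 carries the most E2F-type matches of the 6 and was not called. Mcm10 and Rrm2 hold no match to these E2F-type letters in the window and were lower in those cells as well.
Cdc6, chr11:98907901-98908180, plus strand: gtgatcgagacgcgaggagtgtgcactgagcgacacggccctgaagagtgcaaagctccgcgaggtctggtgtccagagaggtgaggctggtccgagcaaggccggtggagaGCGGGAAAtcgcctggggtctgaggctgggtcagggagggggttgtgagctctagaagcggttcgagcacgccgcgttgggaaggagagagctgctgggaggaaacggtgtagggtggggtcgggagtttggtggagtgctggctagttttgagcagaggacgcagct
Orc1, chr4:108579204-108579483, plus strand: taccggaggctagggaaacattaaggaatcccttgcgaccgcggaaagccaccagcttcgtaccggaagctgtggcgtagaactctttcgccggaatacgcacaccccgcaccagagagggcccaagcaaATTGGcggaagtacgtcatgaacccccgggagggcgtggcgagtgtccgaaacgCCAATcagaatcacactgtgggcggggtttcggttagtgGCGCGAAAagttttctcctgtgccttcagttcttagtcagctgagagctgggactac
Clspn, chr4:126556730-126557009, plus strand: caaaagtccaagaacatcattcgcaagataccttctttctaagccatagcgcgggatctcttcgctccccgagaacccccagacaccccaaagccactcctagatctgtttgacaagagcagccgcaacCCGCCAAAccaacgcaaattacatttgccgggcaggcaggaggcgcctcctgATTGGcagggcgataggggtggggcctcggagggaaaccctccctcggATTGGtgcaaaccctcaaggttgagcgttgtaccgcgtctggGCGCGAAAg
Mcm6, chr1:128359676-128359955, minus strand: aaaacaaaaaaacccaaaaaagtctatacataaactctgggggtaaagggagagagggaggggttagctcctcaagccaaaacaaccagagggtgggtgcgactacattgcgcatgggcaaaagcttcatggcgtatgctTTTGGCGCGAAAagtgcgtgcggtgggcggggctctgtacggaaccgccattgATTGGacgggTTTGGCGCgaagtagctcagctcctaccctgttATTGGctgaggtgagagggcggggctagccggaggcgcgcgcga
Mcm10, chr2:5012762-5013041, minus strand: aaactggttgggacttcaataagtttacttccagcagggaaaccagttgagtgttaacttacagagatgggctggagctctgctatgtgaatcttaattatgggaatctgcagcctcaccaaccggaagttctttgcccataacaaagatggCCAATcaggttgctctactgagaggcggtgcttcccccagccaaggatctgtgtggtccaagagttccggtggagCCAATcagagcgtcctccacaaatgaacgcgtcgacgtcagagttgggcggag
Rrm2, chr12:24708004-24708283, plus strand: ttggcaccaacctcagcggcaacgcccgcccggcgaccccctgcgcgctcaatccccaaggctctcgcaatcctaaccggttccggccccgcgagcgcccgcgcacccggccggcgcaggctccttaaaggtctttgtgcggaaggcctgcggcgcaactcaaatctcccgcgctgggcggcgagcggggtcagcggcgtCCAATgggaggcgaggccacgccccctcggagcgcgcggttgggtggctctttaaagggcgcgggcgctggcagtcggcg

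Among the 32 genes, an E2F-type match was found in 4 of the 11 that were lower in 1% FCS Ctsd-/- cells (36.4%) and in 8 of the 21 that were not called there (38.1%). A CCAAT match was found in 54.5% and 61.9% of these 2 sets. TTTGAA or TTCGAA, the letters of the cell cycle homology region (CHR) of late cell cycle genes, were present in 6 of the 32 windows (18.8%) and in 20.9% of all, with 0 of the 11 and 6 of the 21 (28.6%). No test was made between these small sets.

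Counts on genes were 49725437 to 64291587 per tumor and 33622831 to 40239762 per cell library, and no member had fewer than 13 counts in a tumor or 19 in a cell library. Values are CPM (counts scaled to a common library size) after TMM scaling, and fold changes are log2 values with their standard error (SE) from edgeR's quasi-likelihood test, adjusted over all 18617 genes tested in tumors or 15178 in cells. All 42 genes passed the filter on low counts in both materials. The targeted gene, Ctsd, averaged 2198 ± 438 CPM (SD, n = 4) in control and 921 ± 435 in MMTV-cre;Ctsd-/- tumors. In cells it ranged from 1267 to 4199 CPM in Ctsd+/+ and from 114 to 192 CPM in Ctsd-/- libraries. In each cell group, a single library held the lowest value of nearly every member. Replicate 2 of 1% FCS Ctsd+/+ was lowest for 42 of 42 members (and for 29.0% of all genes tested), replicate 1 of 1% FCS Ctsd-/- for 39 (40.6%), replicate 3 of 1% FCS LT Ctsd+/+ for 42 (33.7%) and replicate 3 of 1% FCS LT Ctsd-/- for 40 (33.9%). Within each cell group most of the 42 genes thus shared their lowest library. The labels give the 12 cell libraries 3 library codes, 1 for replicate 1 of both 1% FCS groups, 1 for replicate 3 of both 1% FCS LT groups and 1 for the other 8 libraries.

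Per kilobase of exon, Pcna stood highest of the 42 in cells (65.7 CPM per kb over the 4 cell groups), followed by Mcm3 (58.3), Mcm6 (54.5) and Rrm2 (49.8). Rmi2, of the BLM dissolvasome, and Orc1, the largest ORC subunit, stood lowest (0.461 and 1.89). In tumors, Rrm2 (45.3 CPM per kb) and Pcna (40.8) were the highest and Rmi2 the lowest (0.138). Fen1, the flap endonuclease of lagging strand synthesis, stood at 39.0 CPM per kb in cells and at 0.439 in tumors. In tumors reads were counted without regard to strand, and 1909 of the 2422 exonic bases of Fen1 are shared with the antisense gene Gm10143, and a read in shared sequence was assigned to neither gene. The tumor value of Fen1 is therefore not read here as a level of its mRNA. Gins2 (2758 bases shared with Gse1), Rfc2 (952 with Lat2), Ccne2 (609 with Ints8) and Rfc5 (499 with Wsb2) also share exonic sequence with a gene on the other strand.

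To ask how CTSD deficiency was reflected under short-term serum restriction, 1% FCS Ctsd-/- cells were compared with 1% FCS Ctsd+/+ cells. Of the 42 genes, 39 had a lower mean in Ctsd-/- cells (50% of all genes had a negative and 50% a positive fold change). At an adjusted p below 0.05, 13 were lower and 0 higher, where 25.1% of all genes were lower and 23.5% higher. In 10 of the 13 the log2 fold change was also below -1 (14.6% of all genes, with 10.3% above 1). The median log2 fold change was -0.42 over the 42 genes and 0.00 over all genes tested. In 17 of the 42, the 3 Ctsd-/- libraries lay below the 3 Ctsd+/+ libraries (27.6% of all genes in each direction).

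Nucleotide supply was the only role group in which every member was lower at an adjusted p below 0.05. All members also had negative fold changes in licensing (10 genes), S phase entry (3) and fork protection (4). Rrm2, the regulated small subunit of ribonucleotide reductase, stood at 241, 111 and 250 CPM in the 3 Ctsd+/+ libraries and at 66.6, 97.6 and 95.2 in the Ctsd-/- libraries. The groups did not overlap, although Ctsd+/+ replicate 2 came near the Ctsd-/- values. The log2 fold change of Rrm2 was -1.21 ± 0.36 (SE, adjusted p = 0.0142). Tyms, thymidylate synthase, was at 58.2, 47.3 and 67.7 CPM in Ctsd+/+ and at 23.9, 31.1 and 31.6 CPM in Ctsd-/- cells (log2 fold change -1.001 ± 0.24, adjusted p = 0.00505). Tk1, the thymidine kinase of the salvage pathway, was at 153, 125 and 199 CPM against 47.5, 88.4 and 76.2 (-1.17 ± 0.33, adjusted p = 0.0126). The large reductase subunit Rrm1 (-1.06) and the dUTPase Dut (-0.74) were lower as well, and neither overlapped between the groups.

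S phase entry and fork protection held the largest single changes. Ccne2, cyclin E2, was at 17.2, 9.25 and 22.8 CPM in Ctsd+/+ and at 2.24, 2.33 and 4.17 CPM in Ctsd-/- libraries. Every Ctsd-/- library was below every Ctsd+/+ library, with a log2 fold change of -2.50 ± 0.45 (adjusted p = 0.000735). Ccne1, cyclin E1, which activates the same kinase, had 34.4, 21.1 and 38.2 CPM against 18.7, 30.8 and 29.9 CPM, overlapping between the groups (-0.24 ± 0.29, adjusted p = 0.526). E2f1, an activating E2F, was at 61.1, 50.2 and 70.8 CPM against 39.3, 48.2 and 48.0 CPM and missed the threshold (-0.43 ± 0.19, adjusted p = 0.0826). Clspn, claspin, which links the replication fork to the checkpoint kinase ATR, was at 88.4, 55.8 and 87.3 CPM in Ctsd+/+ and at 15.8, 24.3 and 20.5 CPM in Ctsd-/- cells. It had the smallest adjusted p of the 42 (-1.93 ± 0.34, adjusted p = 0.000617). Uhrf1, which recruits the maintenance DNA methyltransferase to newly copied DNA, was at 189, 137 and 213 CPM against 112, 144 and 151 CPM and was not called (-0.40 ± 0.29, adjusted p = 0.276). Rmi2 was lower, from 2.64 ± 0.86 to 0.806 ± 0.365 CPM (SD, n = 3 each, log2 fold change -1.71, adjusted p = 0.00335), at few reads.

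Of the 10 licensing genes, Cdc6 and Orc1 were lower. Cdc6 was at 63.5, 32.1 and 79.8 CPM in Ctsd+/+ and at 16.0, 18.8 and 23.3 CPM in Ctsd-/- libraries, with no overlap (-1.60 ± 0.31, adjusted p = 0.0014). Orc1 had a log2 fold change of -1.45 ± 0.32 (adjusted p = 0.00282). The other loading factors, Cdt1 (-0.14 ± 0.23, adjusted p = 0.631) and Orc6 (-0.09 ± 0.19, adjusted p = 0.736), overlapped between the groups and were not called. The 6 subunits of the MCM ring had log2 fold changes between -0.65 (Mcm5) and -0.02 (Mcm7), and none passed the threshold. Mcm2 was at 179, 141 and 206 CPM against 115, 142 and 139 CPM (-0.41 ± 0.26, adjusted p = 0.211). Mcm6 was at 224, 210 and 284 CPM against 148, 212 and 218 CPM (-0.31 ± 0.23, adjusted p = 0.274). In both genes the groups overlapped.

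Mcm10, which helps to activate the helicase, was at 47.9, 30.7 and 56.7 CPM in Ctsd+/+ and at 20.2, 21.3 and 19.6 CPM in Ctsd-/- cells (-1.15 ± 0.27, adjusted p = 0.0042). Cdc45 was at 37.6, 27.1 and 52.9 CPM against 21.5, 35.2 and 32.0 CPM and was not called (-0.41 ± 0.28, adjusted p = 0.245), and neither were the 4 GINS subunits. No polymerase or primase gene passed the threshold. Prim2, the large primase subunit, had the largest difference of them (-0.63 ± 0.25, adjusted p = 0.0555), with 32.9, 27.4 and 40.2 CPM against 17.1, 25.6 and 22.3 CPM and no overlap. Of the clamp, clamp loader and lagging strand genes, Rpa2, a subunit of the single-strand binding protein RPA, was lower, with 37.2, 26.5 and 44.1 CPM against 14.3, 24 and 22.2 CPM (-0.83 ± 0.28, adjusted p = 0.0297). Lig1, the ligase that joins Okazaki fragments, lay at the threshold (-0.69 ± 0.26, adjusted p = 0.0496), and its call was lost under 12 of 19 other settings. Pcna was at 172, 132 and 181 CPM against 119, 157 and 138 CPM, with overlapping groups (-0.23 ± 0.17, adjusted p = 0.289).

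The 13 calls of this comparison rested unequally on single libraries. Without replicate 1 of 1% FCS Ctsd-/- cells, 9 members were lower (23.7% of all genes). Rrm2 (adjusted p = 0.0556), Tk1 (0.0505), Rpa2 (0.107) and Lig1 (0.155) were no longer called. Among only the 8 libraries that share a code, 11 members were lower (23.5% of all genes) and the median was -0.32. Orc1, Cdc6, Mcm10, Rrm1, Tyms, Dut, Ccne2, Clspn and Rmi2 were lower in each of the 19 other settings. Over 13108 protein-coding genes, log2 CPM relative to the mean of the 12 libraries changed with log2 transcript length. The slope was 0.05 to 0.15 in 1% FCS Ctsd+/+ and -0.13 to -0.01 in 1% FCS Ctsd-/- libraries. Of the 21 members with a transcript longer than 3010 bases, 21 had a negative fold change (median -0.52). Of the 21 shorter ones 18 had (median -0.33). No fit of cells held this slope as a covariate, and its part was not tested.

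**Figure D1:**
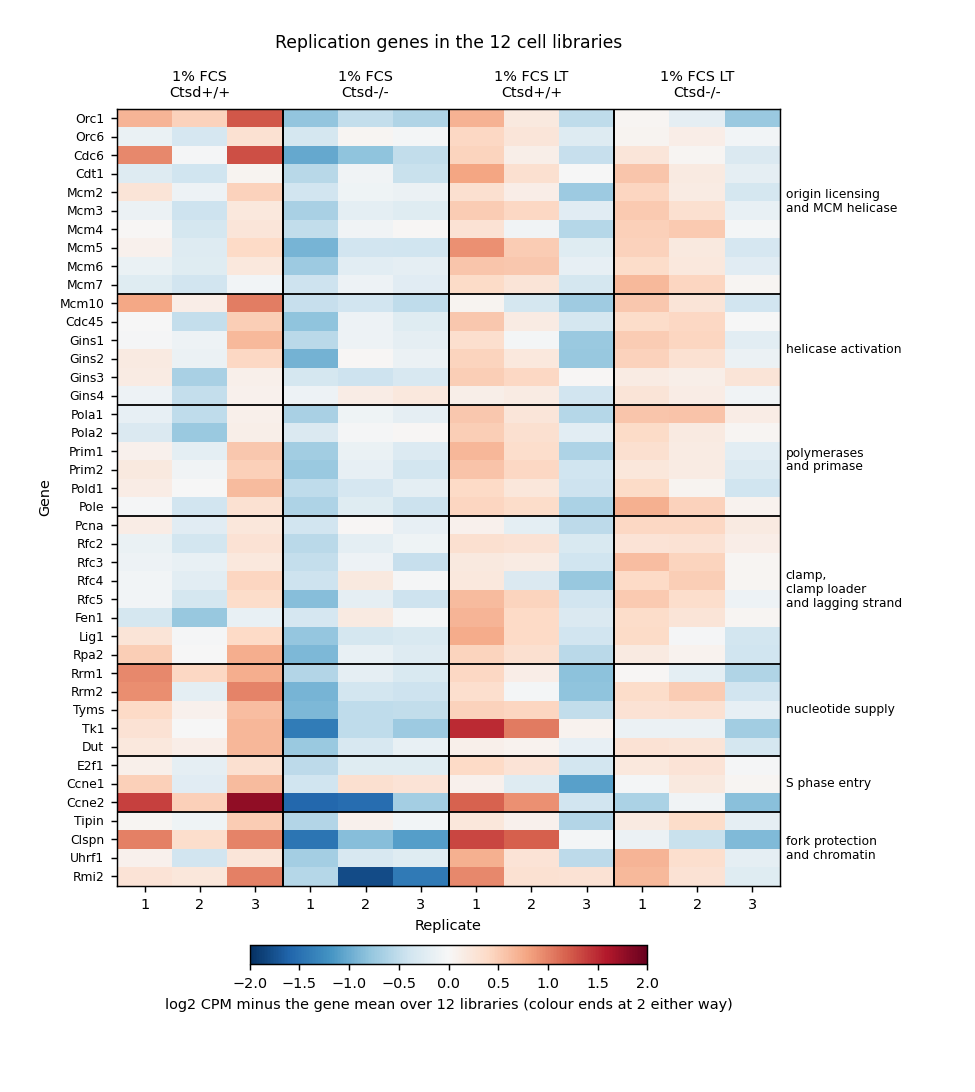
Replication genes in the 12 cell libraries. Rows are the 42 genes by role and columns are replicates 1 to 3 of the 4 cell groups, and colour gives the log2 CPM of a gene minus its mean over the 12 libraries. The 1% FCS Ctsd-/- libraries are mostly below the mean, and 1 library in each group is lower than the others for 39 to 42 of the 42 genes.

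After 12 weeks in 1% FCS, the genotypes were compared again. Of the 42 genes, 22 had a lower and 20 a higher mean in 1% FCS LT Ctsd-/- than in 1% FCS LT Ctsd+/+ cells, where 49.0% and 51.0% of all genes did, and the median log2 fold change was -0.01, with 0.01 over all genes. The sign of this median changed between settings. At an adjusted p below 0.05, 3 members were lower and 1 was higher, where 19.1% of all genes were lower and 20.5% higher. The groups did not overlap in 2 members that were lower (26.4% of all genes) and 1 that was higher (27.9%).

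Clspn remained lower, with 111, 101 and 42.6 CPM in Ctsd+/+ and 40.5, 32.2 and 23.8 CPM in Ctsd-/- cells (-1.40 ± 0.33, adjusted p = 0.00571). The groups did not overlap, and the lowest Ctsd+/+ library, replicate 3, was close to the highest Ctsd-/- library. Tk1 was at 353, 258 and 132 CPM against 116, 116 and 77.9 CPM (-1.26 ± 0.33, adjusted p = 0.0106). Ccne2 was at 15.2, 12.5 and 5.15 CPM against 4.29, 6.36 and 3.75 CPM (-1.19 ± 0.43, adjusted p = 0.0446), and Ctsd+/+ replicate 3 lay within the range of the Ctsd-/- libraries. Its call was lost in 9 of 19 other settings. Without replicate 1 of the Ctsd+/+ group, Clspn was the only member lower, and Tk1 had an adjusted p of 0.0529 and Ccne2 of 0.168. Pcna was higher in Ctsd-/- cells, with 205, 206 and 176 CPM against 165, 135 and 107 CPM and no overlap (0.53 ± 0.17, adjusted p = 0.0276). Its call was lost in 5 of 19 other settings, with log2 fold changes of 0.38 to 0.52 and adjusted p-values of 0.0651 to 0.1 in those 5. They were the 8 libraries that share a code and the omission of replicate 2 or 3 of the Ctsd+/+ or replicate 1 or 2 of the Ctsd-/- group.

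Of genes that were lower at 10 days, Cdc6 and Tyms had nearly equal means at 12 weeks, and Rrm2 and Mcm10 had higher means in Ctsd-/- cells that did not pass the threshold. Cdc6 was at 44.6, 35.6 and 23.9 CPM in Ctsd+/+ and at 38.7, 33.6 and 26.8 CPM in Ctsd-/- cells (-0.07 ± 0.31). Rrm2 was at 160, 123 and 72.1 CPM against 164, 179 and 96.4 CPM (0.31 ± 0.35). Tyms was at 61.1, 59.6 and 31.4 CPM against 54.0, 54.5 and 39.4 CPM (-0.04 ± 0.24). Mcm10 in Ctsd-/- cells was at 40.6, 33.2 and 21.5 CPM against 29.0, 21.9 and 17.1 CPM in Ctsd+/+ cells (0.49 ± 0.27, adjusted p = 0.17). That none of the 4 passed the threshold at 12 weeks does not show that the genotypes were equal.

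**Figure D2:**
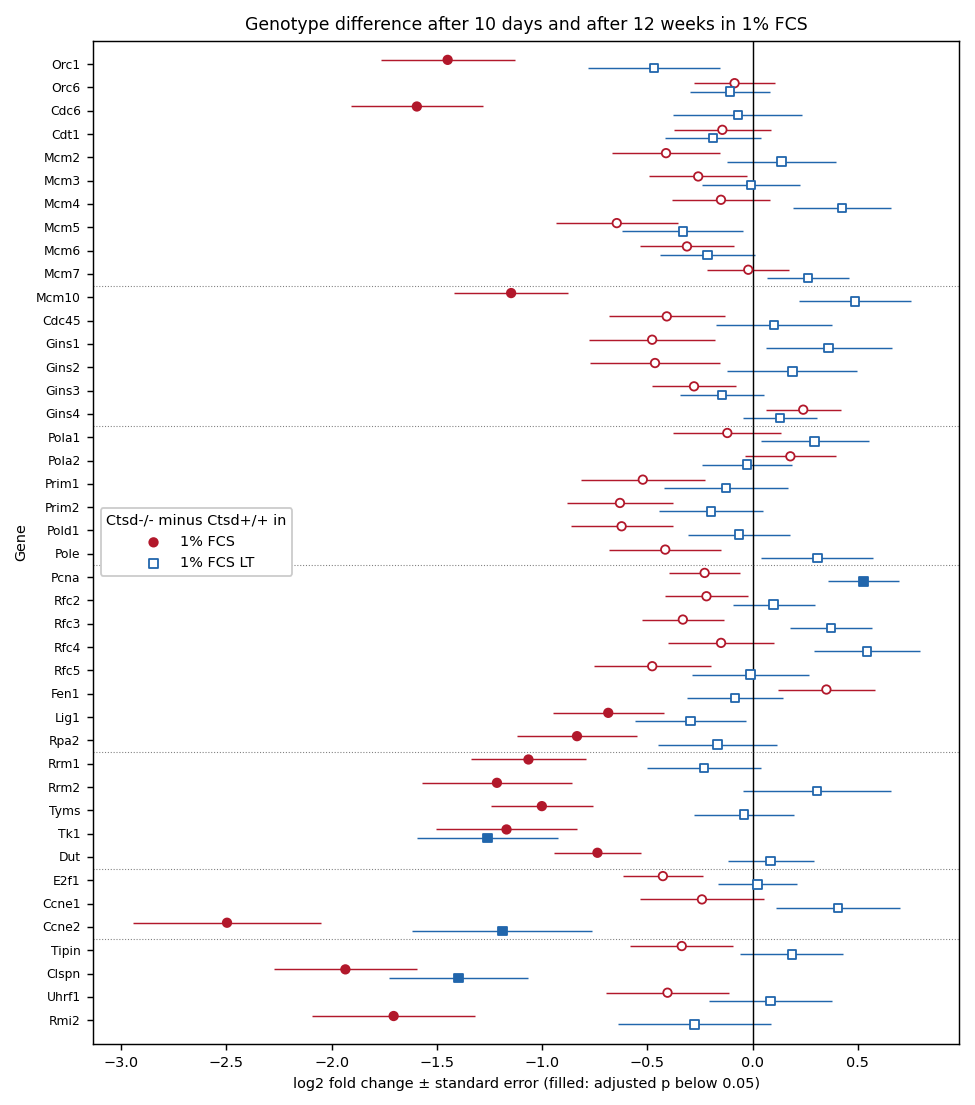
Genotype difference of each of the 42 genes. Points are log2 fold changes of Ctsd-/- over Ctsd+/+ cells with their standard errors, after 10 days (red circles) and 12 weeks (blue squares) in 1% FCS, and filled points passed an adjusted p of 0.05. At 10 days 39 of 42 points lie below 0 and 13 are filled, and at 12 weeks the points scatter on both sides of 0, with Clspn, Tk1 and Ccne2 lower and Pcna higher.

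The change of the genotype difference with time was tested directly as an interaction, the difference at 12 weeks minus the difference at 10 days. It was positive for 36 of the 42 genes (49.8% of all genes, with 50.2% negative), with a median of 0.53 (0.00 over all genes). The length slope of the 12-week libraries was -0.02 to 0.01. The interaction was positive for 21 of the 21 longer members (median 0.55) and for 15 of the 21 shorter ones (0.51). At an adjusted p below 0.05 it was higher for 4 members and lower for 0, where 16.1% of all genes were higher and 14.1% lower. The 4 genes were Mcm10 (1.64 ± 0.38, adjusted p = 0.00689), Cdc6 (1.53 ± 0.44, adjusted p = 0.0211), Rrm2 (1.52 ± 0.50, adjusted p = 0.0375) and Pcna (0.76 ± 0.24, adjusted p = 0.0332). Dut (adjusted p = 0.0505) and Tyms (0.0512) were just outside. Clspn (0.54 ± 0.46, adjusted p = 0.416) and Tk1 (-0.09 ± 0.47, adjusted p = 0.912), lower in Ctsd-/- cells at both times, were not called. Mcm10 kept its call in the 19 other settings. When 1 library at a time was left out, 1 to 8 members were called, against 12.8% to 16.1% of all genes. In 1% FCS LT Ctsd-/- cells this gave 1 without replicate 1, 2 without replicate 2 and 8 without replicate 3. In 1% FCS LT Ctsd+/+ cells it gave 7 without replicate 1 and 2 without replicate 2 or 3, and in 1% FCS Ctsd+/+ cells 2 without replicate 1 or 3. Rrm2 lost its call in 11 and Pcna in 9 of 19 other settings, and Cdc6 in 2, without replicate 1 of 1% FCS LT Ctsd-/- cells (adjusted p = 0.0516) and among the 8 libraries that share a code (0.105).

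The interaction holds 2 changes over time, which share libraries with the genotype comparisons. In Ctsd-/- cells, 41 of the 42 genes had a higher mean at 12 weeks than at 10 days (49.3% of all genes, with 50.2% lower), and the median log2 fold change was 0.52 (0.00 over all genes). In 18 of the 42 (42.9%) the 3 libraries at 12 weeks lay above the 3 at 10 days, against 13.5% of all genes, and in 0 below (11.9%). No member passed an adjusted p of 0.05 with edgeR, where 1.57% of all genes passed as higher and 0.81% as lower. At an unadjusted p below 0.05, 20 members were higher and 0 lower (10.3% and 7.65% of all genes). DESeq2 called 5 members higher (4.37% of all genes), edgeR without a filter 4 (1.8%), and limma-voom 0 (1.2%). The smallest adjusted p, 0.0763, belonged to Rfc3, a clamp loader subunit (23.0, 29.7 and 23.4 CPM at 10 days against 49.3, 43.7 and 32.8 CPM), and to Rmi2 (1.22, 0.52 and 0.68 CPM against 2.83, 2.21 and 1.52 CPM). Both genes were higher in every 12-week library. Pole, the catalytic subunit of the leading strand polymerase, was at 78.8, 102 and 89.7 CPM at 10 days and at 197, 167 and 127 CPM at 12 weeks, and Rfc5, another clamp loader subunit, at 25.3, 40.5 and 34.5 CPM against 66.2, 58.7 and 42.6 CPM. The log2 fold change was 0.86 ± 0.27 for Pole (adjusted p = 0.117) and 0.74 ± 0.28 for Rfc5 (0.189). Among the 8 libraries that share a code, 5 members were higher (3.4% of all genes). Without replicate 3 of 1% FCS LT Ctsd-/- cells 1 was (1.76%), and without replicate 3 of 1% FCS LT Ctsd+/+ cells 2 were (1.34%). Ccne1 was the exception with a negative value (-0.03).

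In Ctsd+/+ cells the 42 genes did not move together over time. Of them, 24 had a higher and 18 a lower mean at 12 weeks (50.2% and 49.7% of all genes), with a median of 0.03 that changed sign between settings. At an adjusted p below 0.05, 2 were lower and 1 was higher (23.4% and 23.0% of all genes), and the groups did not overlap in 2 that were lower (26.3% of all genes) and 0 that were higher (27.3%). Mcm10 fell by 0.99 ± 0.27 on the log2 scale (adjusted p = 0.00969), with no overlap between the groups. Rrm1, at 470, 321 and 400 CPM at 10 days and 321, 265 and 137 CPM at 12 weeks, was lower by the test (-0.72 ± 0.27, adjusted p = 0.0478), and its call was lost under 10 of 19 other settings. Fen1 was higher, at 71.2, 53.7 and 82.5 CPM against 146, 120 and 74.8 CPM, with overlapping groups (0.71 ± 0.23, adjusted p = 0.0239). Without replicate 2 of 1% FCS Ctsd+/+ cells Fen1 had an adjusted p of 0.0922, and without replicate 1 or 2 of 1% FCS LT Ctsd+/+ cells of 0.112 or 0.0666. Cdc6 (-0.75 ± 0.31, adjusted p = 0.0639), Rrm2 (-0.76 ± 0.35, adjusted p = 0.0974) and Ccne1 (-0.68 ± 0.30, adjusted p = 0.0821) had lower means without passing the threshold, and Pola2, the regulatory subunit of polymerase alpha, a higher one (0.50 ± 0.22, adjusted p = 0.0782). Among the 8 libraries that share a code, 7 members were higher and 0 lower, where 21.1% of all genes were higher and 21.9% lower, and the median was 0.25. Without replicate 2 of 1% FCS Ctsd+/+ or replicate 1 of 1% FCS LT Ctsd+/+ cells 0 were higher and 5 lower, without replicate 2 of the latter 0 and 1, without its replicate 3 6 and 1, and without replicate 3 of 1% FCS Ctsd+/+ cells 3 and 1. Without other single libraries, 1 or 2 were higher and 1 or 2 lower. Over all genes, 18.9% to 23.4% were higher and 19.7% to 23.6% lower in these settings with 1 library left out.

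**Figure D3:**
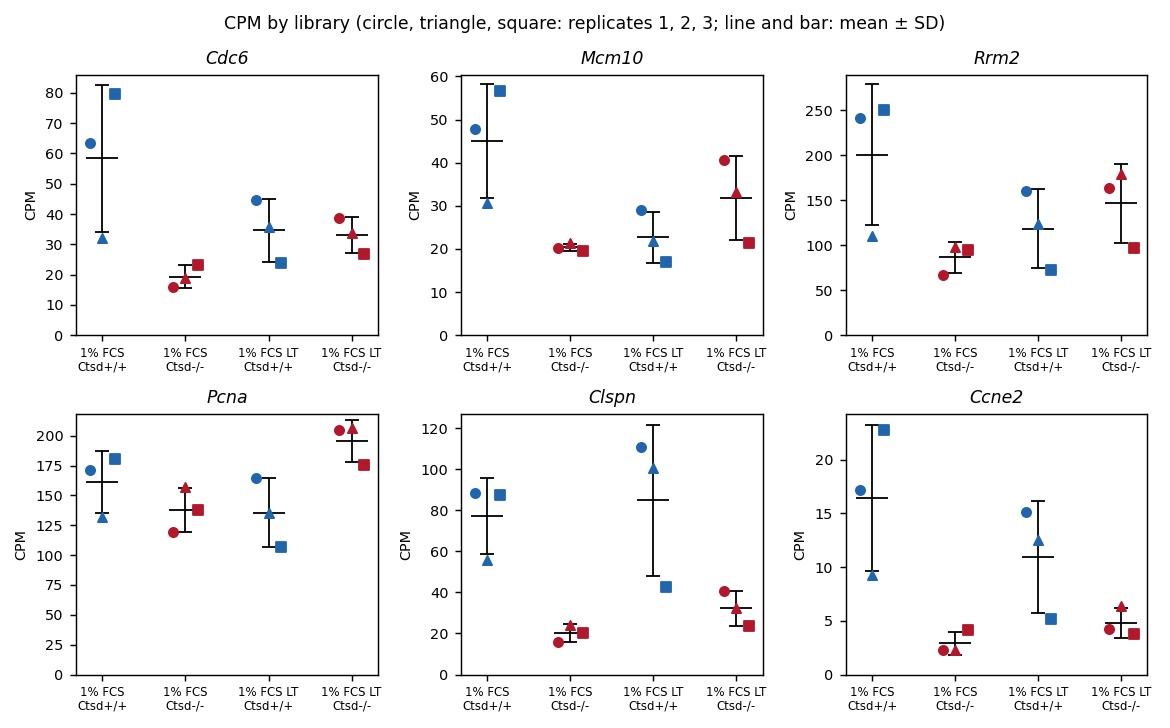
CPM of 6 genes by library in the 4 cell groups. Circles, triangles and squares are replicates 1, 2 and 3, Ctsd+/+ in blue and Ctsd-/- in red, and black lines with bars give the mean and SD of 3 libraries. Cdc6, Mcm10 and Rrm2 differ between the genotypes at 10 days and overlap at 12 weeks, Clspn is lower in Ctsd-/- cells at both times, and Pcna is highest in 1% FCS LT Ctsd-/- cells.

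Other cell cycle genes were counted from lists of their own. Of 33 other replisome genes, 11 were lower and 1 higher in 1% FCS Ctsd-/- than in 1% FCS Ctsd+/+ cells, with a median of -0.39. Over all genes 25.1% were lower and 23.5% higher there, and in the interaction 16.1% were higher and 14.1% lower. In the interaction 4 of these 33 were higher and 2 lower, led by Pole2, a polymerase epsilon subunit (1.25, adjusted p = 0.028), Pold4, a polymerase delta subunit (-1.05, adjusted p = 0.0034), and Rpa1, the large RPA subunit (0.91, adjusted p = 0.0267). Of 28 other nucleotide synthesis genes, mostly of purine and pyrimidine synthesis, 4 were lower and 6 higher at 10 days, with a median of -0.12. Of these, Samhd1, which degrades deoxynucleotides, was lower in Ctsd-/- cells (-1.34 ± 0.17, adjusted p = 6.11e-05). Its interaction was 1.39 (adjusted p = 0.00112). Of 27 mitosis genes, 26 had a lower mean and 11 were called lower at 10 days, with a median of -0.72, and 4 had a higher interaction, among them Bub1b, Bub1 and Top2a. Mki67, the gene of the proliferation marker Ki-67, was at 737, 476 and 626 CPM in 1% FCS Ctsd+/+ and at 282, 308 and 268 CPM in 1% FCS Ctsd-/- cells (-1.10 ± 0.32, adjusted p = 0.0134). At 12 weeks it was at 598, 548 and 238 CPM against 587, 408 and 307 CPM (-0.09 ± 0.31), and its interaction was 1.01 (adjusted p = 0.109).

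Of 19 E2F, RB and S phase kinase genes, 6 were lower and 2 higher at 10 days (25.1% and 23.5% of all genes). Rb1, the retinoblastoma gene, was itself lower, with 45.6, 28.9 and 26.2 CPM in Ctsd+/+ and 12.8, 10.8 and 10.6 CPM in Ctsd-/- cells (-1.56 ± 0.22, adjusted p = 0.000114), and its interaction was 1.31 (adjusted p = 0.00642). Tfdp2, a dimerization partner of E2F factors, had an interaction of 1.13 (adjusted p = 0.0019), and E2f5, a repressive E2F, of -0.85 (adjusted p = 0.0185). Of 7 CDK inhibitor genes, 2 were higher and 2 lower in 1% FCS Ctsd-/- cells (23.5% and 25.1% of all genes). Cdkn2a, whose locus encodes p16 and p19ARF, was at 4.38, 1.34 and 1.2 CPM in 1% FCS Ctsd+/+ and at 28.9, 26.6 and 30.2 CPM in 1% FCS Ctsd-/- cells (3.63 ± 0.39, adjusted p = 1.7e-05). At 12 weeks it was at 9.19, 10.8 and 10.0 CPM against 18.5, 17.9 and 18.5 CPM, and its interaction was -2.77 (adjusted p = 0.00174). Cdkn2b, which encodes p15 and lies beside Cdkn2a, had 0 CPM in all 6 Ctsd+/+ libraries, 53.5 to 58.7 CPM in 1% FCS Ctsd-/- and 27.7 to 30.9 CPM in 1% FCS LT Ctsd-/- cells. Cdkn1a, p21, had a log2 fold change of -0.31 (adjusted p = 0.257) at 10 days and an interaction of -0.23 (adjusted p = 0.608).

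Markers of cell type moved along with the same comparisons. The summed level of 9 epithelial genes was 1102 to 2544 CPM in 1% FCS Ctsd+/+ cells, against 12650 to 16699 CPM in 1% FCS Ctsd-/-, 7837 to 8546 CPM in 1% FCS LT Ctsd+/+ and 9599 to 12806 CPM in 1% FCS LT Ctsd-/- cells. All 9 were lower in 1% FCS Ctsd+/+ than in 1% FCS Ctsd-/- cells at an adjusted p below 0.05 (edgeR). The sum of 6 fibroblast genes was 626 to 2616 CPM in 1% FCS Ctsd+/+ cells and at most 14.9 CPM in the other 9 cell libraries. Of 8 lymphocyte markers, 6 or 7 had at most 3 counts in every library of each cell group. The group of 1% FCS Ctsd+/+ cells enters the genotype comparison at 10 days, the interaction and the change over time in Ctsd+/+ cells, and the part of these marker differences in those results was not tested.

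In tumors, MMTV-cre;Ctsd-/- mice were compared with control mice at 18 weeks. At the unadjusted p below 0.1 that the study used for tumors, 3 members were higher and 3 lower, where 8.44% of all genes were higher and 8.27% lower. No member passed an adjusted p of 0.05 with edgeR, where 0.00537% of the genes tested were higher and 0.0% were lower. At the stricter unadjusted p below 0.05, 1 member was higher and 1 lower (5.07% and 3.88% of the genes tested). The median log2 fold change was 0.08 (0.00 over all genes), and it was -0.04 once the length slope of each library, described below, was a covariate.

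Pola2 was at 12.3, 11, 9.50 and 8.27 CPM in control and at 12.8, 15.6, 23.2 and 19.5 CPM in MMTV-cre;Ctsd-/- tumors. The groups did not overlap (2.26% of all genes were higher without overlap), with a log2 fold change of 0.79 ± 0.24 (unadjusted p = 0.0088, adjusted p = 0.465). It passed the unadjusted threshold in 16 of 17 other settings, and not with adipocyte markers as a covariate (edgeR, unadjusted p = 0.244, adjusted p = 0.966). Cdt1, the licensing factor, was at 12.8, 12.1, 10.0 and 7.0 CPM against 13.3, 15.6, 13.7 and 14.8 CPM (0.45 ± 0.23, adjusted p = 0.586), and Rmi2 at 0.407, 0.556, 0.564 and 0.330 CPM against 0.638, 0.769, 0.824 and 0.863 CPM (0.73 ± 0.39, adjusted p = 0.592). In both genes every MMTV-cre;Ctsd-/- tumor was above every control tumor, and the calls were lost in 10 and 12 of 17 other settings. Tyms was at 92.7, 86.2, 99.4 and 129 CPM against 82.5, 73.9, 70.0 and 77.5 CPM, without overlap (-0.42 ± 0.19, unadjusted p = 0.0451, adjusted p = 0.555), where 1.89% of all genes were lower without overlap. Gins4 was at 38.0, 36.1, 56.0 and 90.1 CPM against 42.6, 37.9, 29.8 and 38.0 CPM (-0.57 ± 0.29, adjusted p = 0.584), and the fourth control tumor stood apart from all others. This tumor also held 1097 CPM of 5 skeletal muscle markers in sum, against 3.81 to 18.6 CPM in the other control tumors and 6.35 to 264 CPM in MMTV-cre;Ctsd-/- tumors. All 5 had lower means in the latter (median log2 fold change -1.57), 0 passed the unadjusted threshold, and the part of this tissue in the values was not tested. Orc6, the smallest ORC subunit and the remaining gene that was lower, had a log2 fold change of -0.46 ± 0.23. The calls of Gins4 and Orc6 were lost in 10 and 8 of 17 other settings. Without the fourth control tumor 1 member was higher and 1 lower (7.55% and 4.46% of all genes), and Gins4 had a log2 fold change of -0.23. Without the first MMTV-cre;Ctsd-/- tumor 10 were higher and 6 lower (11.3% and 12.1% of all genes), and without the first control tumor 9 were higher and 4 lower (10.3% and 10.5%). Without replicate 2, 3 or 4 of the MMTV-cre;Ctsd-/- tumors 1 was higher (8.43%, 5.77% and 5.12%), and 3, 0 and 1 were lower (6.45%, 4.73% and 4.32%). Without the third control tumor 1 was lower (5.58%).

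Of the genes that were lower at 10 days in 1% FCS, Rmi2 and Tyms did not overlap between the tumor groups, as given above. They went opposite ways, Tyms lower and Rmi2 higher in MMTV-cre;Ctsd-/- tumors. Rmi2 had 13 to 55 counts per tumor, and with opposite-strand counts its log2 fold change was 0.37 ± 0.43 (edgeR, unadjusted p = 0.413). Cdc6, Clspn and Rrm2 had overlapping values in tumors. Cdc6 was at 19.2, 19.9, 9.40 and 7.61 CPM in control and at 10.9, 24.2, 11.2 and 10.2 CPM in MMTV-cre;Ctsd-/- tumors (0.01 ± 0.40). Clspn was at 11.3, 8.77, 3.78 and 2.08 CPM against 4.69, 10.1, 11.7 and 8.26 CPM (0.42 ± 0.50). Rrm2 was at 142, 124, 95.3 and 94.7 CPM against 137, 140, 117 and 155 CPM (0.27 ± 0.20). None of these 3 passed the unadjusted threshold. Mcm2 was at 40.5, 38.4, 18.0 and 16.2 CPM against 20.5, 46.7, 56.6 and 39.9 CPM (0.53 ± 0.38), and Pcna at 95.0, 92.5, 103 and 137 CPM against 102, 87.4, 88.0 and 78.7 CPM (-0.26 ± 0.19).

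Within the tumor groups, the 42 genes showed opposite orders of the tumors. The first control tumor held the highest control value of 22 members (and of 26.6% of all genes tested), among them Mcm2 to Mcm7. The fourth held the lowest value of 22 (36.0% of all genes), with Mcm2, Mcm3, Mcm4, Mcm6 and Mcm7 among them. The same tumor held the highest value of 12 others, such as Gins4, Pcna, Tyms and Dut (34.6% of all genes). The longest annotated transcript had a median of 3495 bases among the 22 and of 1896 bases among the 12. In the MMTV-cre;Ctsd-/- group the first tumor was lowest for 22 members (median 3463 bases) and highest for 13 (median 1950 bases). It was lowest for 31.3% and highest for 32.0% of all genes. Over 14958 protein-coding genes, log2 CPM relative to the mean of the 8 tumors changed with log2 transcript length by a slope of -0.40 in the fourth control tumor, of -0.08 in the third control tumor and the first MMTV-cre;Ctsd-/- tumor, and of 0.07 to 0.14 in the other 5. Reads set aside because they overlapped several genes made up 15.6% of the fourth control tumor, 12.4% of the third and 7.11% to 9.75% of the other 6. Of the 21 members with a transcript longer than the median of 3010 bases, 16 had a positive log2 fold change (median 0.31), and of the 21 shorter ones 9 (median -0.01). Over all genes tested, the median difference of mean log2 CPM was 0.12 for 8970 genes longer than that and -0.11 for 9557 shorter ones. With the length slope as a covariate, Pola2 (0.60 ± 0.20, edgeR adjusted p = 0.656) and Tyms (-0.26 ± 0.11, adjusted p = 0.742) passed the unadjusted threshold, and Gins4 (-0.13 ± 0.15, adjusted p = 0.909) and Cdt1 (0.27 ± 0.16, adjusted p = 0.805) did not. The labels give control tumors 1 library code and MMTV-cre;Ctsd-/- tumors another, so that code and genotype cannot be told apart.

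**Figure D4:**
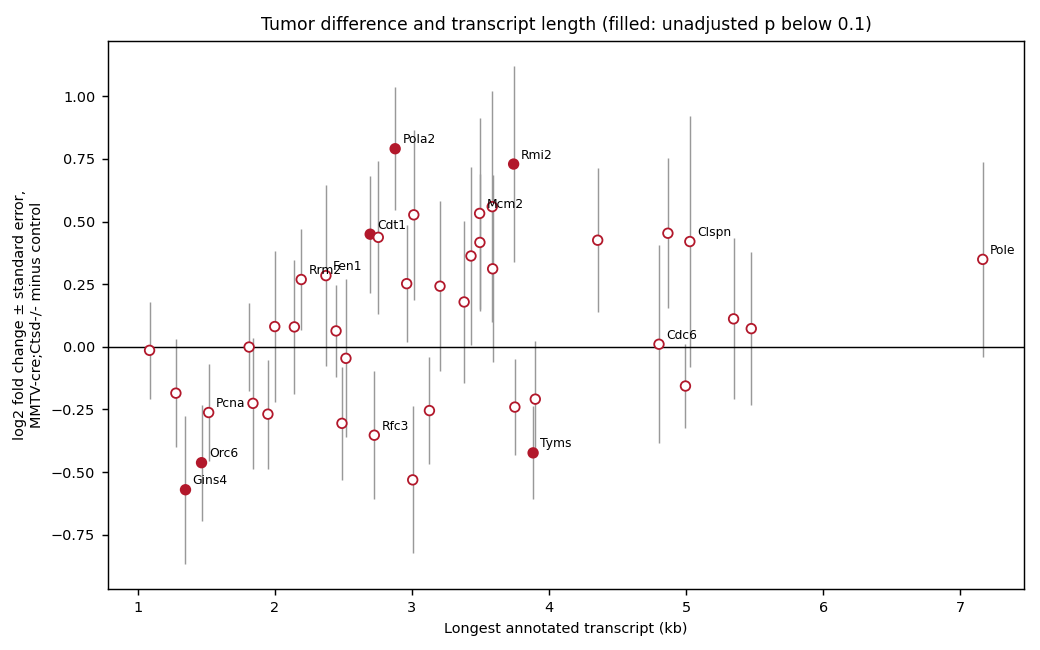
Tumor difference against transcript length. Each point is 1 of the 42 genes, with the longest annotated transcript in kb on the x axis and the log2 fold change of MMTV-cre;Ctsd-/- over control tumors, with its standard error, on the y axis, and filled points passed an unadjusted p of 0.1. Of the 21 longer genes 16 lie above 0, and of the 21 shorter genes 9.

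The cell makeup of the tumors differed as well. All 8 adipocyte markers were higher in MMTV-cre;Ctsd-/- tumors at the unadjusted threshold, with log2 fold changes of 1.80 to 3.78, and their sum was 872 to 5841 CPM in control and 3954 to 25706 CPM in MMTV-cre;Ctsd-/- tumors. In 2 of these 8 the groups did not overlap. Of 6 endothelial markers 5 were higher, where 8.44% of all genes were. Adjusted p-values (edgeR) were 0.366 to 0.553 for adipocyte and 0.521 to 0.598 for endothelial markers. At the unadjusted threshold 1 of 8 lymphocyte and 1 of 6 fibroblast markers were higher, and 0 of 8 macrophage markers passed. The sum of the epithelial markers was 6056 to 10169 CPM against 5865 to 7321 CPM. In such bulk tissue, fewer cells of a type and less RNA per cell cannot be told apart. With adipocyte markers as a covariate, 0 members passed the unadjusted threshold in either direction, where 3.96% of all genes were higher and 3.27% lower. The standard errors were larger in that fit. The log2 fold changes were 0.59 ± 0.38 for Cdt1, 0.69 ± 0.67 for Rmi2, -0.66 ± 0.46 for Gins4 and -0.49 ± 0.30 for Tyms, and they were smaller than without the covariate for Pola2 (0.50 ± 0.40) and Orc6 (-0.28 ± 0.36). With epithelial markers 1 member was higher and 1 lower (7.04% and 4.09% of all genes). Of the other lists, without a covariate, 2 of 33 other replisome genes were higher, 2 of 28 other nucleotide synthesis genes were lower and 1 was higher, 1 of 27 mitosis genes was higher, and 0 of 19 E2F, RB and S phase kinase genes passed the unadjusted threshold. Over all genes 8.44% were higher and 8.27% lower. Mki67 was at 100, 97.0, 58.6 and 31.6 CPM in control and at 50.3, 141, 99.4 and 116 CPM in MMTV-cre;Ctsd-/- tumors (0.50 ± 0.40).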

How the data were processed

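RNA was sequenced from 8 tumors and 12 cell cultures on an Illumina instrument. After trimming (Trimmomatic), the authors aligned reads to the GRCm38 (mm10) genome by STAR. Its table of unnormalized counts for each Ensembl gene, regardless of strand and by strand, was deposited. The annotation release and tool versions are not given in the sources used here. Since 52.8% to 53.7% of the strand-assigned counts of tumors and 97.1% to 97.3% of those of cells lay on the opposite strand, counts regardless of strand were used for tumors and opposite-strand counts for cells. Symbols came from GENCODE M21, in which 206 of 206 listed genes were found. Positions and promoter windows were on GRCm38.

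Low counts were removed with filterByExpr, and TMM scaling and the two-sided quasi-likelihood test of edgeR 4.0.16 (R 4.3.3) were applied, for tumors and for the 12 cell libraries separately, with Benjamini-Hochberg adjustment. Between replicates, the common coefficient of variation of edgeR was 0.429 (tumors) and 0.217 (cells). The method was tested on simulated data. Because the study's own tests used limma, limma-voom (limma 3.58.1) was an alternative. Other alternatives were DESeq2 1.42.0, its size factors, no filter, another strand, a replicate block, covariates and the omission of each library. Every member could be named. Values per library were given for 12 preset members and the member with the largest change of each role group in a comparison, and from other lists up to 3 genes per list past the threshold in the interaction, with Mki67, Ctsd, Cdkn2a and Cdkn1a. Cdkn2b was added after its values were seen. The members and lists were chosen with earlier results of these data known.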

Additional observations from a re-analysis of the deposited data

Results flagged for a closer look

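For 4 of the 42 genes the genotype difference changed between 10 days and 12 weeks by the interaction test, with log2 values of 1.64 for Mcm10, 1.53 for Cdc6, 1.52 for Rrm2 and 0.76 for Pcna. In the same test 16.1% of all genes were higher and 14.1% lower. Rrm2 lost its call in 11, Pcna in 9 and Cdc6 in 2 of 19 other settings, and Mcm10 in 0. In tumors, 50 sets of 4 libraries (25 genes in 2 groups) were examined for a library far from the other 3, and 2 sets had one, where chance gives about 5%. In the MMTV-cre;Ctsd-/- group, the second tumor stood apart for Cdc6 (24.2 CPM against 10.2 to 11.2 CPM), with a gap to range ratio of 0.892, and the first tumor stood apart for Pole (6.56 CPM against 10.7 to 10.8 CPM), with a ratio of 0.979.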

How the results depend on the processing

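In every setting the median over the 42 genes moved from its main value by less than the spread between replicates. That spread, the pooled SD of the mean log2 CPM over the members, was 0.187 in tumors and 0.343 in cells. It is a spread of levels and not of fold changes, so it cannot show that a median was stable. In settings other than the omission of 1 library, the median was -0.04 to 0.21 in tumors and 0.26 to 0.56 in the interaction. Counts of called members moved by over 1.5 times as follows. Shares of all genes stand in brackets. In tumors (3 higher, 3 lower), 1 was higher with no filter (7.92%). With the replicate block (5.94% higher and 3.82% lower), epithelial markers (7.04% and 4.09%) or, chosen after seeing the data, the length slope (7.28% and 5.49%) as a covariate, 1 was higher and 1 lower. With adipocyte markers 0 and 0 were (3.96% and 3.27%). Leaving out 1 tumor gave 1 to 10 higher (5.12% to 11.3%) and 0 to 6 lower (4.32% to 12.1%). For the genotype difference at 12 weeks (1 higher, 3 lower), the 8 libraries with a shared code gave 0 higher (19.1%). With 1 library left out 0 to 2 were higher (15.7% to 21.4%) and 1 to 3 lower (14.9% to 20.9%). For Ctsd-/- cells over time (0 higher), DESeq2 (4.37%) and the 8 libraries (3.4%) each gave 5 and no filter gave 4 (1.8%). With 1 library left out 0 to 2 were higher (0.199% to 2.12%). For Ctsd+/+ cells over time (1 higher, 2 lower), DESeq2 gave 2 higher (23.7%), no filter 2 higher and 5 lower (12.4% and 13.1%), and the 8 libraries 7 higher and 0 lower (21.1% and 21.9%). With 1 library left out 0 to 6 were higher (18.9% to 23.4%) and 1 to 5 lower (19.7% to 23.6%). For the interaction (4 higher), DESeq2 gave 7 (18.1%), and leaving out 1 library gave 1 to 8 (12.8% to 16.1%). The 13 lower members at 10 days became 9 to 17 when 1 library was left out (20.5% to 25.1%) and 11 to 16 otherwise (14.2% to 26.4%). Medians with 1 library left out were 0.00 to 0.23 in tumors, -0.58 to -0.28 and -0.21 to 0.16 between genotypes at 10 days and 12 weeks, 0.38 to 0.66 in Ctsd-/- and -0.16 to 0.26 in Ctsd+/+ cells over time, and 0.30 to 0.75 in the interaction. The cause of these moves was not tested.

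The replicate numbers did not pair the libraries by the rule that every pair correlates above 0.1. Deviations of same-numbered libraries correlated at -0.30 to -0.01 in tumors and at 0.36, 0.10 and 0.30 between genotypes at 10 days. The block left 12 lower members at 10 days (25.2% of all genes) and 4 higher in the interaction (16.4%), where Rrm2 had an adjusted p of 0.051. At 12 weeks 2 were lower and 1 was higher. The spread between 3 cultures, of which 1 was low for most members, limits what can be told.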
